A study of Mus musculus with 34 samples.

Results

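Origin licensing is described here through 10 genes of the count table, of 13108 rows in all, taken as a named pathway with no cutoff on their values: the 6 subunits of the MCM helicase (Mcm2, Mcm3, Mcm4, Mcm5, Mcm6 and Mcm7), the factors that load it (Orc1, Cdc6 and Cdt1) and Gmnn, which encodes geminin, an inhibitor of loading. The study asked how the loss of YTHDF2, a reader of methylated adenosine in mRNA that promotes the decay of the transcripts it binds, affects hematopoietic stem cells (HSCs) in young and in aged mice. HSCs were sorted from bone marrow as LSK CD48-CD150+ cells, 100 cells to a library, and sequenced by SMART-Seq2, which copies polyadenylated RNA along its length. Ythdf2 CKO mice were Ythdf2 fl/fl with Vav-iCre, a Cre driven in blood cells of all lineages, and Ythdf2 CTL mice (wild type in the sample labels) were Ythdf2 fl/fl without Cre, so the floxed allele, which carries a GFP reporter, was shared by all groups on the C57BL/6 background. There were 4 young Ythdf2 CTL and 4 young Ythdf2 CKO mice of 8 to 12 wk, and 4 aged Ythdf2 CTL and 5 aged Ythdf2 CKO mice of 1 yr.

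Before a cell copies its DNA, the origin recognition complex, of which ORC1 is the largest subunit, marks the origins in G1, and CDC6 and CDT1 then place the ring of MCM2 to MCM7 on the DNA, ready to be turned into the replicative helicase in S phase. Geminin, which accumulates in S and G2 phase, binds CDT1 and so keeps an origin from being licensed again in the same cycle. HSCs are mostly quiescent, MCM genes are E2F targets that fall in cells that leave the cycle for long, and lower MCM levels have been described in HSCs of old mice.

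The promoters that hold E2F letters are shown first, because these letters recur in most of the member windows. A RefSeq promoter window of GRCm38.p6, from 250 bases before to 50 bases after the start, was given for 8 members, all but Mcm4 and Gmnn. The E2F letters TTTCGCGC or TTTGGCGC, searched on both strands and with overlapping matches allowed, were present for 6 of the 8 (75.0%), against 251 of 27025 genes (0.929%) with a window. Windows of Mcm2 and Cdc6 did not hold these letters, which says nothing about E2F at those genes. The Cdc6 window (chr11:98907901-98908200) lies within the annotated gene, which starts at base 98907801. The bases before that start were not searched. Mcm7 had a further window (chr5:138171217-138171516), for another start, without these letters. The stretches below run 5′ to 3′ on the strand of the gene, and capitals mark the matches. In Mcm6 and Mcm5 a run of capitals holds one match on each strand, which overlap, and in Orc1 the match is on the opposite strand.
Mcm3 (chr1:20820263-20820284, - strand): cttgggaagtTTTGGCGCcaag
Mcm5 (chr8:75109346-75109377, + strand): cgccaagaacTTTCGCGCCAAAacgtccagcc
Mcm6 (chr1:128359735-128359825, - strand): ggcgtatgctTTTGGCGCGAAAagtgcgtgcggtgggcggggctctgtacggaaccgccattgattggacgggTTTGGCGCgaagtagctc
Mcm7 (chr5:138171850-138171877, - strand): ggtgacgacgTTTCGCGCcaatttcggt
Orc1 (chr4:108579417-108579444, + strand): tcggttagtgGCGCGAAAagttttctcc
Cdt1 (chr8:122568037-122568064, + strand): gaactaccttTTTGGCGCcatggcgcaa
The CCAAT letters were also present for 6 of the 8, against 41.1% of genes, and the letters TTTGAA of the cell-cycle homology region for 1 of the 8 (Mcm2), against 20.2%. These matches are descriptions of the windows and not tested sites.

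Depth and labels bear on every value. Totals per mouse ranged from 2218618 to 10125624 counts over the 17 mice, after 1 library, aged Ythdf2 CTL 99 B with 187034 counts, was left out, and levels are given as CPM, the count of a gene scaled to the TMM-adjusted library size of the mouse, with the libraries of a mouse summed. Ythdf2 itself stood at 118, 123, 93.4 and 97.2 CPM in young Ythdf2 CTL mice 1 to 4 and at 55.6, 57.6, 60.3 and 50.3 CPM in young Ythdf2 CKO mice 1 to 4, without overlap. In aged mice, 2 values went against the labels: the mouse labelled Ythdf2 CKO 121 stood at 188 CPM against 72.4 to 87.8 CPM in the other Ythdf2 CKO mice, and the one labelled Ythdf2 CTL 124 at 70.5 CPM against 142 to 179 CPM in the other Ythdf2 CTL mice. Aged genotypes are therefore those of the labels throughout, and results that rest on these mice are also given without both. HSC markers were present in all groups (10 of 10 in the table, a summed level of 1549 to 2946 CPM), while the 3 lymphoid markers in the table summed to at most 25.7 CPM. Markers of other lineages were not absent: the 7 myeloid markers summed to 556 to 1260 CPM over the 17 mice. The 5 erythroid markers in the table summed to 88.1 to 271 CPM. The 6 megakaryocyte and platelet markers summed to 513 to 872 CPM in young Ythdf2 CTL and to 1005 to 3147 CPM in young Ythdf2 CKO mice, and in aged mice they summed to 390 to 612 CPM under the Ythdf2 CTL label and to 1732 to 2085 CPM under the Ythdf2 CKO label, apart from the mouse labelled 121, which lay in the Ythdf2 CTL range. Cd48 was lower in aged than in young mice of both genotypes (mean ± SD, 11.8 ± 13.2 against 68.0 ± 14.0 CPM in Ythdf2 CTL and 12.3 ± 9.10 against 102 ± 3.95 CPM in Ythdf2 CKO mice). Between young genotypes, the HSC marker Ly6a was called higher in Ythdf2 CKO mice, at 1.202 on the log2 scale (SE 0.19, adjusted p = 0.0201 by edgeR), and so was the platelet marker Pf4, at 1.80 (SE 0.34, adjusted p = 0.0488). Y-linked genes reached 50 counts in 3 of 4 young Ythdf2 CTL, 1 of 4 young Ythdf2 CKO, 1 of 4 aged Ythdf2 CTL and 1 of 5 aged Ythdf2 CKO mice. The part of these differences in the results below was not tested beyond the Y-linked covariate, and in such bulk libraries fewer cells with a transcript and less of it per cell cannot be told apart.

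All 10 members were detected in every mouse, but their levels differed widely. Per length, as CPM per kb of the exon union of GENCODE M21, Gmnn led in young Ythdf2 CTL mice at 139 ± 26.6 (SD, n = 4), followed by Mcm6 at 120.5 ± 15.7 (SD, n = 4), Mcm3 at 78.8 ± 10.5 (SD, n = 4) and Mcm4 at 65.8 ± 9.81 (SD, n = 4). Mcm7, Mcm5 and Mcm2 followed at 58.8 ± 7.90 (SD, n = 4), 37.4 ± 7.18 (SD, n = 4) and 28.6 ± 7.36 (SD, n = 4), so that the subunits of a complex that holds each of them once differed in mRNA level. The loading factors came last, with Cdt1 at 23.8 ± 5.30 (SD, n = 4), Cdc6 at 14.98 ± 3.85 (SD, n = 4) and Orc1 at 6.07 ± 1.77 (SD, n = 4). In this order the ranges of neighbours did not overlap between Mcm6 and Mcm3, between Mcm7 and Mcm5 and between Cdc6 and Orc1, and they overlapped for all other neighbours. Over all 17 mice, Mcm6 was above 95.0% and Orc1 above 36.2% of the 12298 tested genes with a length, the highest and the lowest of the members. In aged mice of both genotypes Gmnn had left the top of the order: Mcm6 and Mcm3 led, at 101 ± 27.4 (SD, n = 4) and 100.5 ± 15.8 (SD, n = 4) in aged Ythdf2 CTL mice, with Gmnn at 65.9 ± 11.96 (SD, n = 4). Orc1 rested on 6 to 213 counts per mouse and every other member on 94 or more. The exon union counts all annotated exons, so a gene with long minor isoforms is understated on this scale.

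**Figure D1:**
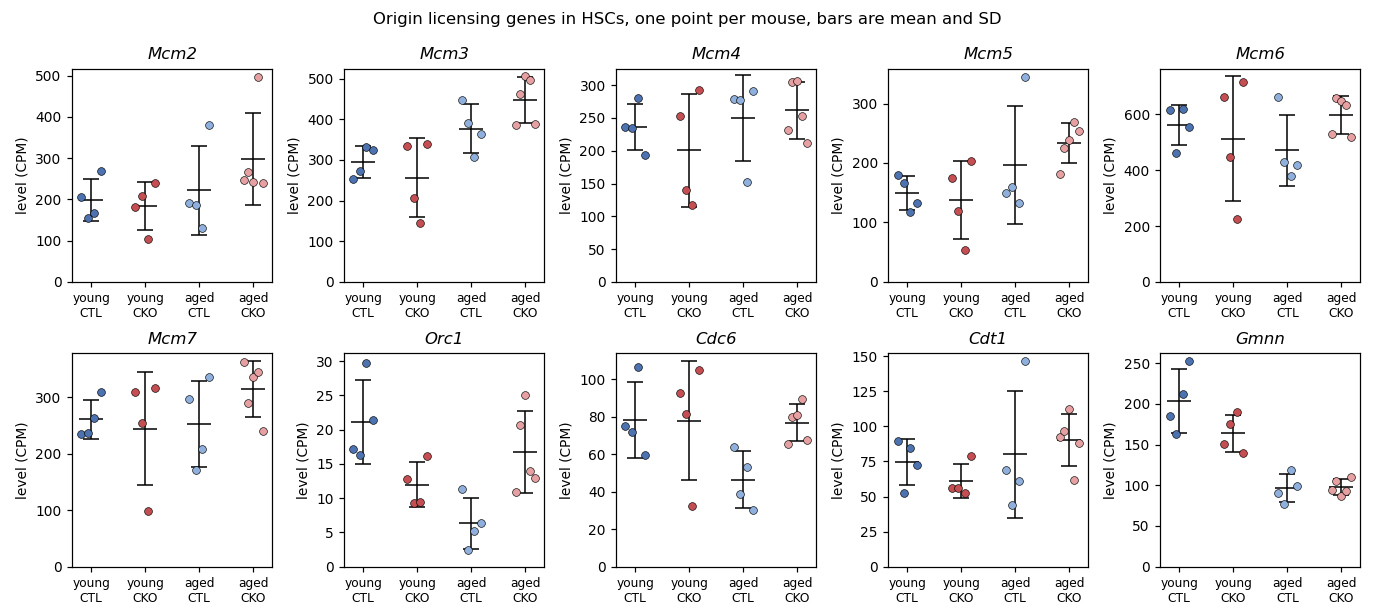
Levels of the 10 members in CPM (vertical axes, each starting at 0), with one point for each mouse and bars for the mean and SD of young CTL (n = 4), young CKO (n = 4), aged CTL (n = 4) and aged CKO (n = 5) mice. Gmnn separates young from aged mice in both genotypes, Orc1 separates young CTL from aged CTL mice, and young CKO 3 is the lowest mouse of its group in each Mcm panel.

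The helicase subunits come first. Mcm6 (chr1:128331590-128359664), part of the core of the hexamer, had the highest level of the 6. Mcm6 stood at 615, 462, 618 and 553 CPM in young Ythdf2 CTL mice 1 to 4 and at 664, 447, 225 and 718 CPM in young Ythdf2 CKO mice 1 to 4. Aged Mcm6 levels were 661, 428, 381 and 418 CPM in Ythdf2 CTL 65, 99, 114 and 124 and 529.7, 659, 649, 635 and 519.7 CPM in Ythdf2 CKO 78, 81, 94, 121 and 122. Young Ythdf2 CKO 3 was the lowest of the 17 mice, and the genotypes overlapped at both ages. Mcm3 (chr1:20802968-20820312), the subunit by which the helicase docks on ORC and CDC6, had 2 mice of the same group below all young Ythdf2 CTL mice. Mcm3 stood at 252, 273, 333 and 326 CPM in young Ythdf2 CTL mice 1 to 4 and at 335, 205, 145 and 339.7 CPM in young Ythdf2 CKO mice 1 to 4. Aged mice had 448, 392, 306 and 363 CPM in Ythdf2 CTL 65, 99, 114 and 124 and 387, 461, 507, 496 and 389.5 CPM in Ythdf2 CKO 78, 81, 94, 121 and 122. All aged Ythdf2 CKO mice were above all young Ythdf2 CKO mice, while the genotypes overlapped at both ages. Mcm4 (chr16:15623897-15637400), in the core with MCM6 and MCM7, varied most among young Ythdf2 CKO mice. Mcm4 stood at 236, 234, 279.9 and 194 CPM in young Ythdf2 CTL mice 1 to 4 and at 253, 139.7, 117 and 293 CPM in young Ythdf2 CKO mice 1 to 4. The aged values were 279, 277, 152 and 291 CPM in Ythdf2 CTL 65, 99, 114 and 124 and 232, 305, 307, 253 and 212 CPM in Ythdf2 CKO 78, 81, 94, 121 and 122. The groups overlapped throughout, and aged Ythdf2 CTL 114 lay far below the other 3 mice of its group. Mcm7 (chr5:138164583-138172422) overlaps Cops6 and Ap4m1 on the opposite strand and hosts Mir25 in an intron, and since the use of strand in the counting was not given, a few of its reads may belong to the neighbours. Mcm7 stood at 234, 236, 262 and 309 CPM in young Ythdf2 CTL mice 1 to 4 and at 308, 253, 99.3 and 316 CPM in young Ythdf2 CKO mice 1 to 4. Aged Mcm7 levels were 296, 171, 207 and 335 CPM in Ythdf2 CTL 65, 99, 114 and 124 and 362, 289, 336, 344 and 239.8 CPM in Ythdf2 CKO 78, 81, 94, 121 and 122. Young Ythdf2 CKO 3 was again the lowest mouse of all.

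Mcm5 (chr8:75109569-75128439), which with MCM2 forms the gate of the ring through which DNA enters, had the widest spread of the subunits (an SD between mice of a group of 0.540 on the log2 scale). Mcm5 stood at 179, 167, 118 and 133 CPM in young Ythdf2 CTL mice 1 to 4 and at 175, 119, 53.8 and 203 CPM in young Ythdf2 CKO mice 1 to 4. Aged mice had 149, 160.1, 132 and 344 CPM in Ythdf2 CTL 65, 99, 114 and 124 and 182, 225, 238, 269 and 254 CPM in Ythdf2 CKO 78, 81, 94, 121 and 122. Young Ythdf2 CKO 3 was the lowest, and the highest was aged Ythdf2 CTL 124 by its label. Mcm2 (chr6:88883474-88898780), the subunit that also binds histones, had 1 high mouse in each aged group. Mcm2 stood at 205, 154, 167 and 268 CPM in young Ythdf2 CTL mice 1 to 4 and at 180.4, 209, 103 and 241 CPM in young Ythdf2 CKO mice 1 to 4. The aged values were 191, 186, 129.8 and 379 CPM in Ythdf2 CTL 65, 99, 114 and 124 and 247, 267, 242, 497 and 240.2 CPM in Ythdf2 CKO 78, 81, 94, 121 and 122. These high mice were the 2 whose Ythdf2 level went against the label.

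The loading factors had lower levels. Orc1 (chr4:108579423-108614833), the ORC subunit whose level changes with the cell cycle, was the member whose groups differed most relative to its level. Orc1 stood at 17.2, 16.3, 29.8 and 21.3 CPM in young Ythdf2 CTL mice 1 to 4 and at 12.8, 9.32, 9.37 and 16.2 CPM in young Ythdf2 CKO mice 1 to 4. Aged Orc1 levels were 11.3, 2.48, 5.22 and 6.31 CPM in Ythdf2 CTL 65, 99, 114 and 124 and 10.9, 20.7, 25.1, 13.9 and 12.9 CPM in Ythdf2 CKO 78, 81, 94, 121 and 122. All young Ythdf2 CTL mice were above all young Ythdf2 CKO mice, though by a small margin, and all aged Ythdf2 CTL mice were below all young Ythdf2 CTL mice. In aged mice the order of the genotypes was turned, with 1 aged Ythdf2 CTL mouse (65) above the lowest Ythdf2 CKO mouse. Cdc6 (chr11:98907801-98923940), the ATPase that joins ORC to recruit the helicase, showed no such order in young mice. Cdc6 stood at 75.2, 71.9, 107 and 59.4 CPM in young Ythdf2 CTL mice 1 to 4 and at 92.8, 81.7, 32.5 and 105 CPM in young Ythdf2 CKO mice 1 to 4. Aged mice had 64.1, 38.8, 53.1 and 30.1 CPM in Ythdf2 CTL 65, 99, 114 and 124 and 65.7, 80.2, 81.0, 89.6 and 67.8 CPM in Ythdf2 CKO 78, 81, 94, 121 and 122. All aged Ythdf2 CKO mice were above all aged Ythdf2 CTL mice, though by a small margin. In library A alone the genotypes overlapped, with 77.3 CPM in Ythdf2 CTL 65 and 54.85 CPM in Ythdf2 CKO 122. Cdt1 (chr8:122568015-122573554) carries the helicase to ORC and CDC6, and it overlaps over its whole length with the annotated gene Gm20388 on the same strand, so its count may be incomplete. Cdt1 stood at 89.5, 52.2, 84.7 and 72.3 CPM in young Ythdf2 CTL mice 1 to 4 and at 56.0, 56.3, 52.8 and 79.2 CPM in young Ythdf2 CKO mice 1 to 4. The aged values were 68.9, 44.1, 61.1 and 146 CPM in Ythdf2 CTL 65, 99, 114 and 124 and 92.4, 96.5, 112, 62.0 and 88.5 CPM in Ythdf2 CKO 78, 81, 94, 121 and 122. The highest of all was the mouse labelled aged Ythdf2 CTL 124, and the groups overlapped.

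Gmnn (chr13:24751845-24761923) was the only member whose young and aged mice did not overlap in either genotype. Gmnn stood at 185, 163, 212 and 253 CPM in young Ythdf2 CTL mice 1 to 4 and at 150.5, 175, 189.6 and 140.2 CPM in young Ythdf2 CKO mice 1 to 4. Aged Gmnn levels were 90.7, 77.2, 119 and 99.1 CPM in Ythdf2 CTL 65, 99, 114 and 124 and 93.6, 105, 87.2, 93.5 and 110.4 CPM in Ythdf2 CKO 78, 81, 94, 121 and 122. Its lowest young mouse, Ythdf2 CKO 4, was above its highest aged mouse, Ythdf2 CTL 114.

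How far these values can be trusted is shown by the libraries of a mouse, since 16 mice had both a library A and a library B. Over these pairs, the SD between libraries of a mouse on the log2 scale was 0.228 for Gmnn, 0.296 for Mcm7 and 0.354 for Cdc6, but 0.705 for Cdt1 and 1.10 for Orc1. For Orc1, Cdt1, Mcm3, Mcm5 and Gmnn it was larger than the SD between mice of a group with their libraries summed, which was 0.556 for Orc1 and 0.444 for Cdt1. In young Ythdf2 CKO 1, Orc1 stood at 22.7 CPM in library A and 1.24 CPM in library B. In young Ythdf2 CKO 2, Mcm3 stood at 107 CPM in library A and 363 CPM in library B, and in library B alone the young (up to 403 CPM) and aged (from 335 CPM) Ythdf2 CKO mice overlapped. In the mouse labelled aged Ythdf2 CTL 124, Cdt1 stood at 258 CPM in library A and 46.7 CPM in library B, so its high value came from 1 library. Among the members, libraries of 100 cells thus differed least for Gmnn and most for Orc1.

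Among young mice, no member differed between genotypes by the quasi-likelihood test of edgeR, adjusted over 11526 genes by Benjamini-Hochberg (0 of 10 called, where 0.174% of all genes were called). All 10 log2 fold changes were negative, with a median of −0.16 against a median of 0 for all genes, of which 49.9% were positive. Orc1 had the largest, −0.82 (SE 0.34, unadjusted p = 0.0296, adjusted p = 0.626), and was the 1 member whose genotypes did not overlap, where 4.77% of all tested genes did not. Its exact permutation p (two-sided) was 0.0286, the smallest that 4 against 4 mice allow. Gmnn followed at −0.31 (SE 0.16, unadjusted p = 0.0781, adjusted p = 0.755 by edgeR), with −0.54 in library A alone and −0.0156 in library B alone. Cdt1 stood at −0.28 (SE 0.21). The 6 helicase subunits lay between −0.23 (Mcm4, SE 0.24) and −0.09 (Mcm7, SE 0.26), each within 1 SE of 0, and Cdc6 at −0.0022 (SE 0.29). The common sign of the subunits rested on young Ythdf2 CKO 3: without it 5 of the 10 members were positive, with Mcm7 at 0.17 and Cdc6 at 0.25, and still none was called.

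Among aged mice, none of the 10 members was called over 11961 genes, where edgeR called 0% of all genes and an unadjusted p below 0.05 was reached by 532 genes with a positive and 676 with a negative fold change. All 10 log2 fold changes were positive, with a median of 0.29 against 0 for all genes. Orc1 was again first, at 1.39 (SE 0.51, unadjusted p = 0.0167, adjusted p = 0.398), and Cdc6 followed at 0.73 (SE 0.24, unadjusted p = 0.00975, adjusted p = 0.380). Cdc6 was the 1 member whose genotypes did not overlap, where 3.48% of all tested genes did not, with an exact permutation p (two-sided) of 0.0159, the smallest that 4 against 5 mice allow. Of the helicase subunits, Mcm2 stood at 0.44 (SE 0.30), Mcm6 at 0.35 (SE 0.18) and Mcm4 at 0.07 (SE 0.21), the last being the smallest of the 6. Gmnn stood at 0.03 (SE 0.18). Without the mice labelled Ythdf2 CKO 121 and Ythdf2 CTL 124, all 10 stayed positive and uncalled, while 40 genes in all were called. Orc1 then stood at 1.41 (adjusted p = 0.348 by edgeR), Cdc6 at 0.49, Mcm2 at 0.56, Mcm5 at 0.61 and Cdt1 at 0.74 (main value 0.18). Mcm2 stood at 0.18 without Ythdf2 CKO 121 and 0.81 without Ythdf2 CTL 124. In library A alone, Mcm4, Cdt1 and Gmnn turned negative, Cdt1 to −0.25. Library B alone gave 0.78 for Cdt1, and Orc1 stood at 2.07 in library A and 0.51 in library B.

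The test of whether the genotype effect differed between ages, an interaction term over all 17 mice, called none of the 10 members and 0% of 12352 genes, of which 255 with a positive and 333 with a negative term had an unadjusted p below 0.05 by edgeR. All 10 interaction terms were positive, from 0.30 (Mcm4, SE 0.35) to 2.18 (Orc1), with a median of 0.45 against −0.02 for all genes. For Orc1 the term was 2.18 (SE 0.59, unadjusted p = 0.00139, adjusted p = 0.942), and for Cdc6 0.72 (SE 0.40, unadjusted p = 0.0861). The Orc1 term stayed between 1.21 and 2.82 in the 28 alternatives run and was called in none of them. The 10 genes were measured in the same mice, so a shared sign over them is not 10 separate observations.

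**Figure D2:**
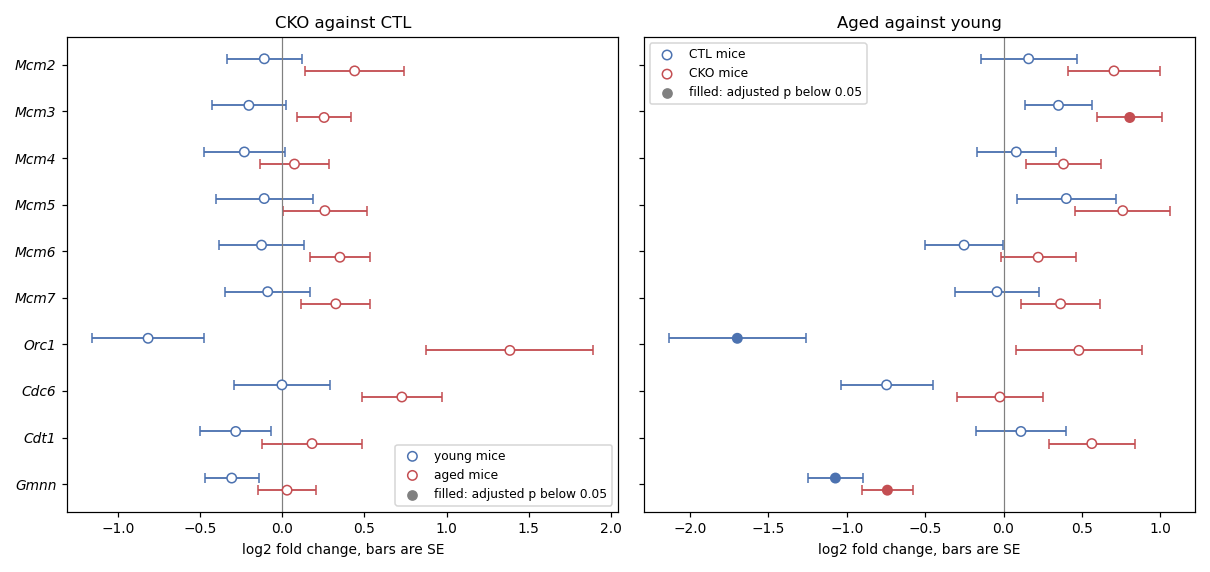
Log2 fold changes of the 10 members (horizontal axes, bars are the SE) for Ythdf2 CKO against CTL in young and aged mice (left) and for aged against young mice of each genotype (right), with filled points where edgeR's adjusted p was below 0.05. No point is filled on the left, and on the right Gmnn is filled and below 0 in both genotypes, Orc1 is filled in CTL mice and Mcm3 in CKO mice.

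Age was compared within each genotype. The sample descriptions of young and aged libraries carry different code prefixes, which are taken here as separate library sets. The titles do not name such sets. Age and library set thus cannot be told apart, and each comparison reads as aged set against young set. In Ythdf2 CTL mice, Gmnn fell by 1.07 on the log2 scale (SE 0.18, adjusted p = 0.00100 by edgeR), from 203 ± 38.9 CPM (SD, n = 4) to 96.5 ± 17.5 CPM (SD, n = 4), and Orc1 fell by 1.70 (SE 0.44, adjusted p = 0.0134), from 21.1 ± 6.17 CPM (SD, n = 4) to 6.33 ± 3.70 CPM (SD, n = 4). These 2 of the 10 members were called lower, where 8.07% of all genes were called lower, and none higher, where 6.7% were. Both also had groups without overlap, where 17.1% of all genes had such groups. Cdc6 stood at −0.75 (SE 0.29, unadjusted p = 0.0186, adjusted p = 0.0907) and was not called. The 6 helicase subunits were not called either, and lay between −0.25 (Mcm6, SE 0.25) and 0.40 (Mcm5, SE 0.31), with 4 of the 6 positive, against a median of 0.11 for all genes. Their sign rested on the mouse labelled aged Ythdf2 CTL 124, without which 1 of the 10 members was positive. In this mouse the dividing-cell markers summed to 3051 CPM, against 975 to 2103 CPM in the other aged Ythdf2 CTL mice. The fork genes summed to 4246 CPM, against 3043 to 3712 CPM, and the HSC markers to 1549 CPM, against 2282 to 2946 CPM. Other licensing genes (1171 CPM), origin firing genes (1064 CPM) and erythroid markers (261 CPM) also summed to more than in the other aged Ythdf2 CTL mice. Myeloid markers (556 CPM) summed to less, and megakaryocyte and platelet markers lay within their range. The part of these sums in its MCM levels was not tested. The Orc1 call was lost without young Ythdf2 CTL 3 (log2 fold change −1.50, adjusted p = 0.0505) and in either library alone, whereas Gmnn lost its call in library B alone (−0.86, adjusted p = 0.0715).

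In Ythdf2 CKO mice, Gmnn fell by 0.74 on the log2 scale (SE 0.16, adjusted p = 0.00460 by edgeR), from 164 ± 22.5 CPM (SD, n = 4) to 98.0 ± 9.51 CPM (SD, n = 5), the 1 member called lower, where 9.34% of all genes were. Mcm3 rose by 0.81 (SE 0.21, adjusted p = 0.0108), from 256 ± 97.1 CPM (SD, n = 4) to 448 ± 57.2 CPM (SD, n = 5), the 1 member called higher, where 7.21% were. Both had groups without overlap, as 20.4% of all genes had. Mcm5 stood at 0.76 (SE 0.30, adjusted p = 0.0901 by edgeR), Mcm2 at 0.70 (SE 0.29, adjusted p = 0.106) and Cdt1 at 0.56 (SE 0.27), none of them called. Log2 fold changes with each mouse left out ranged from 0.60 to 0.97 for Mcm3, 0.48 to 1.01 for Mcm5 and 0.43 to 0.86 for Mcm2. With the library letter as a block, a fit in which the libraries of a mouse count as replicates, 4 members were called in place of 2, Mcm2 and Mcm5 being added, while the calls over all genes went from 2045 to 2867. The Mcm3 call was lost without young Ythdf2 CKO 2 (log2 fold change 0.71, adjusted p = 0.0502) and in library B alone (0.44, adjusted p = 0.316), and the Gmnn call in library A alone (−0.66, adjusted p = 0.0542 by edgeR). Orc1, which fell in Ythdf2 CTL mice, stood at 0.48 (SE 0.40, adjusted p = 0.453) here. The difference between the genotypes in this age effect is the interaction term given above, which was not called.

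Transcript length moved with the age comparisons and with the aged genotype comparison, and is given beside them. Across 12298 genes, which are not independent replicates, exon length and the log2 fold change with age had a Spearman rho of 0.253 for Ythdf2 CTL and of 0.140 for Ythdf2 CKO. Over 10 length classes, the median in Ythdf2 CTL mice rose from −0.39 in the shortest to 0.31 in the longest. In Ythdf2 CKO mice it rose from −0.38 in the shortest to 0.26 in class 6 and fell to 0.03 in the longest. The rho was −0.165 for aged Ythdf2 CKO against CTL (11909 genes), −0.146 for genotype by age and −0.00719 for young Ythdf2 CKO against CTL (11478 genes). Gmnn, with an exon union of 1465 bases, is the shortest member, and the 1230 genes with the shortest exons (up to 1668 bases) had a median log2 fold change of −0.39 in Ythdf2 CTL and −0.38 in Ythdf2 CKO mice, where Gmnn stood at −1.07 and −0.74. Orc1 (3479 bases) and Cdt1 (3140 bases) belong to a length class of equal size with a median of 0.10 in Ythdf2 CTL mice, where Orc1 stood at −1.70 and Cdt1 at 0.11. Mcm3 (3752 bases) lies in a class with a median of 0.19 in Ythdf2 CKO mice, where it stood at 0.81. The part of length in the calls and in the aged genotype values was not tested.

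Because geminin acts on CDT1, the ratio of Cdt1 to Gmnn was taken in each mouse, per length. This measure was chosen after the levels were seen and has no test. Gmnn, its denominator, already separated young from aged mice in both genotypes. Cdt1 was not called with age, at 0.11 on the log2 scale in Ythdf2 CTL and 0.56 in Ythdf2 CKO mice. The ratio is therefore not an observation apart from the fall of Gmnn. Young mice had ratios of 0.133 to 0.225 (Ythdf2 CTL) and 0.130 to 0.264 (Ythdf2 CKO). Aged mice had ratios of 0.240 to 0.690 (Ythdf2 CTL) and 0.310 to 0.601 (Ythdf2 CKO). With libraries summed, every aged mouse was above every young mouse of its genotype, the closest being aged Ythdf2 CTL 114 at 0.240 and young Ythdf2 CTL 1 at 0.225. In Ythdf2 CKO mice this held in library A alone and in library B alone (5 of 5 aged mice in each). In Ythdf2 CTL mice it held in library A alone (4 of 4) but not in library B alone, where 1 of 3 aged mice was above every young mouse. In library B the ratio was 0.0905 in aged Ythdf2 CTL 114 (0.347 in library A) and 0.199 in aged Ythdf2 CTL 124 (1.42 in library A), below young Ythdf2 CTL 1 at 0.2725, so the separation in Ythdf2 CTL mice rested on library A. The scaling of libraries cancels in such a ratio, whereas the length trend given above does not.

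**Figure D3:**
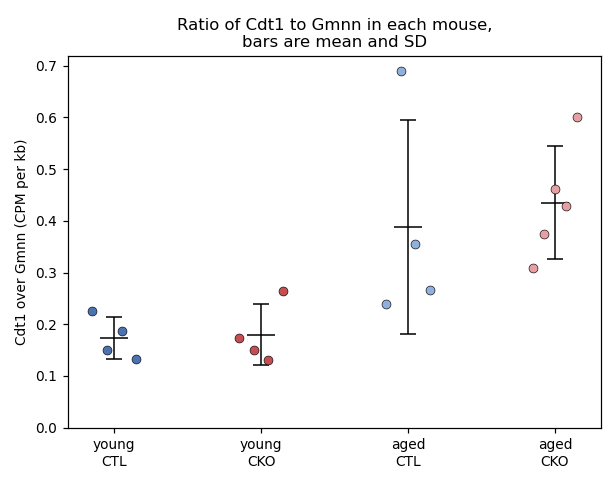
Ratio of Cdt1 to Gmnn in CPM per kb of exon (vertical axis, from 0), one point for each mouse, with bars for the mean and SD of the group. The young mice of both genotypes lie between 0.130 and 0.264 and the aged mice between 0.240 and 0.690, with the mouse labelled aged CTL 124 highest. Gmnn, the denominator, separates the ages by itself.

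The pairs of helicase subunits were compared between mice of a group. With the mean of its group removed from each mouse, the 15 pairs among Mcm2 to Mcm7 had a Pearson r over 17 mice between 0.43 and 0.91 (median 0.69) and a Spearman rho between 0.38 and 0.80. Among 45 pairs of members tested by permutation within groups and adjusted over the 45, 1 passed: Mcm3 with Mcm6, with r = 0.91 (permutation p = 0.00058, adjusted p = 0.0261) and rho = 0.80 (permutation p = 0.00309, adjusted p = 0.0760). Leaving out the 2 mice farthest from the median of Mcm3 gave r = 0.79 for this pair. Mcm6 with Cdc6 (r = 0.84, rho = 0.68, permutation p = 0.0033 for r and 0.0101 for rho, adjusted p = 0.0588 and 0.0760) and Mcm3 with Mcm4 (r = 0.84, rho = 0.79, permutation p = 0.00392 and 0.0123, adjusted p = 0.0588 and 0.0793) came next, and Mcm2 with Mcm5 had r = 0.73. Much of this rested on young Ythdf2 CKO 3, which was the lowest of its group in all 6 subunits and in 8 of the 10 members: without it the median r of the 15 pairs was 0.42 and no pair passed.

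Gmnn had no pair with the helicase that passed. Its r with the 6 subunits was negative for each, from −0.12 with Mcm2 to −0.67 with Mcm4 (rho −0.58, permutation p = 0.0112 for r and 0.0352 for rho, adjusted p = 0.0636 and 0.122). Leaving out the 2 mice farthest from the median of the subunit moved the median r of these pairs from −0.41 to −0.26 (range −0.51 to −0.17). The 6 pairs share Gmnn and are not 6 separate observations. In young Ythdf2 CKO 3, the mouse lowest in the subunits, Gmnn was the highest of the group at 189.6 CPM. In the same mouse the 13 dividing-cell markers summed to 1781 CPM, within the 1600 to 2796 CPM of the other 3 mice, the 29 replication fork genes to 3630 CPM, below their 4597 to 4957 CPM, and the megakaryocyte and platelet markers to 3147 CPM, above their 1005 to 1981 CPM. Its origin firing genes (1016.5 CPM) and G1/S control genes (1284 CPM) also summed to less than in the other 3 mice. Its myeloid markers (1260 CPM) and turnover genes (2897 CPM) summed to more, and its HSC and erythroid markers lay within their range. The part of these values in the low helicase levels was not tested.

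**Figure D4:**
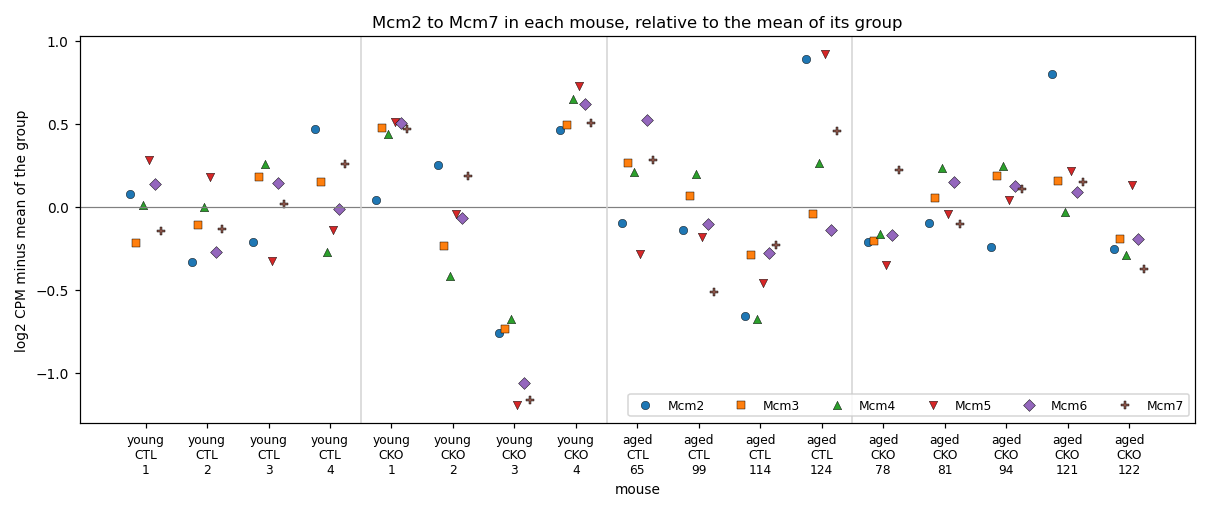
Log2 CPM of Mcm2 to Mcm7 in each of the 17 mice minus the mean of its group (vertical axis), with one marker for each subunit. In young CKO 3 all 6 subunits lie below the group mean and in young CKO 4 all lie above it, whereas in aged CTL 124 and aged CKO 121 Mcm2 lies far above most of the others.

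**Figure D5:**
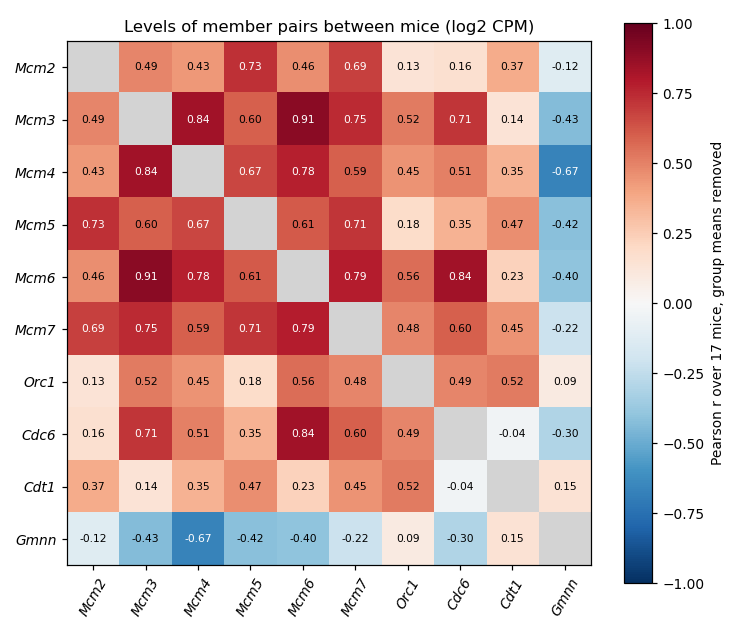
Pearson r of log2 CPM over 17 mice for the 45 pairs of members after the group means were removed (color scale from −1 to 1). The block of Mcm2 to Mcm7 is positive throughout, from 0.43 to 0.91, and the row of Gmnn is negative with all 6 subunits.

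Among 12342 other genes tested in all mice, those whose levels were most like the mean of Mcm2 to Mcm7 between mice included Rnf187 (r = 0.95), Fgd2 (0.92), Eif3b (0.92), Kat7 (0.92), Nek8 (0.91), Mars (0.90), Hspa9 (0.90), Tti1 (0.90) and Srsf1 (0.89), over 17 mice with group means removed. Without young Ythdf2 CKO 3, an alternative chosen after seeing the data, the r of these genes ranged from 0.718 (Hspa9) to 0.904 (Rnf187) over 16 mice. Of the 10 genes most like the mean, 3 were among the 10 most like it there. Of the genes named, Kat7 belongs to the list of other licensing genes; it encodes the HBO1 acetyltransferase, which acts at origins with CDT1. The 12 genes of that list had a median r of 0.346, from −0.45 to 0.92. Of the other lists, the 29 fork genes had a median r of 0.44 with the subunit mean, the 16 origin firing genes 0.23 and the 13 dividing-cell markers 0.19, beside −0.01 for all genes. Among the cell type markers the median was 0.298 for 4 erythroid, −0.286 for 6 megakaryocyte and platelet and −0.318 for 4 myeloid genes. Without young Ythdf2 CKO 3 the medians were 0.360 for fork, 0.133 for origin firing, 0.0846 for dividing-cell and 0.537 for erythroid genes. Those of megakaryocyte and platelet genes and of myeloid genes were −0.132 and −0.261.

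Other genes of the pathway were taken from lists. Of 12 other licensing genes, all tested, none was called between genotypes at either age, with 4 of 12 positive in young and 6 of 12 positive in aged mice. Of the remaining subunits of the origin recognition complex, Orc4 was lower in aged mice of both genotypes, at −0.72 (SE 0.18, adjusted p = 0.0102) in Ythdf2 CTL (82.0 ± 11.5 against 136 ± 11.2 CPM) and −1.04 (SE 0.17, adjusted p = 0.000404) in Ythdf2 CKO mice, and so was Orc5, at −1.06 (SE 0.25, adjusted p = 0.00810) and −0.81 (SE 0.23, adjusted p = 0.0210) by edgeR. Orc3 was called lower in Ythdf2 CKO mice, at −0.56 (SE 0.16, adjusted p = 0.0186), and Kat7 was called higher there, at 0.93 (SE 0.29, adjusted p = 0.0290) by edgeR, so that 2 of the 12 in Ythdf2 CTL and 4 of the 12 in Ythdf2 CKO mice were called. Over all genes, 8.07% were called lower and 6.7% higher in Ythdf2 CTL mice, and 9.34% lower and 7.21% higher in Ythdf2 CKO mice. The counts of the lists below are to be read against these shares.

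Of the 16 origin firing and CMG genes, whose products turn the loaded helicase into its active form or travel with it, none was called between genotypes. In young mice 4 of 15 tested were positive (median −0.32) and in aged mice 12 of 16 (median 0.19). Clspn, a mediator of the checkpoint at forks, stood at −0.64 (SE 0.23, adjusted p = 0.512) in young mice, and Recql4, a helicase needed to start replication, at 2.82 (SE 0.72, adjusted p = 0.297) in aged mice (10.2 ± 3.46 against 1.48 ± 0.907 CPM), neither called by edgeR. With age, 3 genes were called lower in both genotypes: Tipin, a fork protection factor, at −1.36 (SE 0.16, adjusted p = 9.77e-05) in Ythdf2 CTL and −0.80 (SE 0.15, adjusted p = 0.00166) in Ythdf2 CKO mice, Gins1, a subunit of the active helicase, at −1.32 (SE 0.26, adjusted p = 0.00319) and −0.81 (SE 0.24, adjusted p = 0.0275), and Dbf4, the activator of the kinase that fires origins, at −1.05 (SE 0.33, adjusted p = 0.0365) and −0.91 (SE 0.31, adjusted p = 0.0468).

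The 29 replication fork genes gave 0 calls between genotypes, with 6 positive in young and 20 positive in aged mice. Pcna, the sliding clamp, had the smallest p in young mice, at −0.45 (SE 0.13, adjusted p = 0.339) (293 ± 32.0 against 402 ± 39.0 CPM), and Fen1, the flap nuclease, in aged mice, at 0.90 (SE 0.22, adjusted p = 0.297) (174 ± 21.9 against 93.6 ± 28.0 CPM), both by edgeR and neither called. With age, 8 of the 29 were called lower and none higher in Ythdf2 CTL mice (median −0.41), where 8.07% of all genes were called lower and the median of all genes was 0.11, among them Pcna at −0.94 (SE 0.16, adjusted p = 0.00123), Rfc4 at −1.30 (SE 0.19, adjusted p = 0.000310) and Rpa3 at −1.34 (SE 0.20, adjusted p = 0.000409). Pole4, Rfc3 and Prim1, of a polymerase, the clamp loader and the primase, were also called lower there, at −0.95, −0.91 and −1.06. In Ythdf2 CKO mice 4 were called lower (Pole4, Rpa3, Rfc4 and Pcna, from −0.97 to −0.50) and 1, Pold2, higher, at 0.71. Over all genes, the share called lower was 9.34% there. Of the fork genes called in either genotype, Rpa3 (1136 bases of exon) and Rfc4 (1533 bases) belong to the shortest length class, whose median was given above. So does Gins1 (1516 bases) of the origin firing genes.

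The 24 G1/S control genes, the cyclins, kinases, inhibitors and E2F factors upstream of these promoters, held no call between genotypes. With age, Cdkn1a, which encodes the CDK inhibitor p21, was higher in both genotypes, at 2.33 (SE 0.49, adjusted p = 0.00446) in Ythdf2 CTL (36.3 ± 14.9 against 7.13 ± 3.54 CPM) and 1.85 (SE 0.46, adjusted p = 0.00928) in Ythdf2 CKO mice. Ccne2, an S phase cyclin, was lower in both, at −1.04 (SE 0.28, adjusted p = 0.0179) and −0.92 (SE 0.26, adjusted p = 0.0212), as was Lin9, a subunit of the MuvB complex. Cdkn1c, which encodes p57, was higher with age in Ythdf2 CTL mice, at 1.39 (SE 0.29, adjusted p = 0.00434), and stood at −1.22 (SE 0.31, adjusted p = 0.297) in aged Ythdf2 CKO against Ythdf2 CTL mice, not called. E2f8, a repressor of the same promoters, was higher with age in Ythdf2 CKO mice, at 1.38 (SE 0.30, adjusted p = 0.00412) by edgeR. In Ythdf2 CTL mice E2f2 was called higher, at 1.94, and Cdk1, the mitotic kinase, lower, at −0.82, and in Ythdf2 CKO mice E2f4 and Cdkn2c, which encodes the inhibitor p18, were called higher, at 0.54 and 1.495. The list thus held 3 genes higher and 3 lower in Ythdf2 CTL mice, and 4 higher and 3 lower in Ythdf2 CKO mice, of 24 genes, beside the shares over all genes given above.

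Of 16 listed genes that act in the turnover of CDT1, CDC6 and geminin, 13 were in the table and tested, and none was called between genotypes. With age, 3 were called higher and 2 lower in Ythdf2 CTL mice, and 3 higher and 1 lower in Ythdf2 CKO mice. Ddb1, part of the ligase that removes CDT1 in S phase, was higher in both genotypes, at 0.94 (SE 0.26, adjusted p = 0.0221) and 1.25 (SE 0.26, adjusted p = 0.00284), as was Anapc2, a subunit of the anaphase-promoting complex. Fzr1, which directs that complex to geminin in G1, was higher in Ythdf2 CKO mice, at 0.95 (SE 0.21, adjusted p = 0.00385), and Fbxo5, its inhibitor, was lower in Ythdf2 CTL mice, at −1.03 (SE 0.24, adjusted p = 0.00726) by edgeR. Skp1a, a subunit of SCF ubiquitin ligases, was lower in both genotypes, at −0.77 (SE 0.19, adjusted p = 0.0103) and −0.68 (SE 0.18, adjusted p = 0.0119) by edgeR, and Cul4a, the scaffold of the ligase with DDB1, was higher in Ythdf2 CTL mice, at 0.67 (SE 0.22, adjusted p = 0.0444). None of the 13 dividing-cell markers was called in any of the 5 comparisons. Their smallest p was that of Top2a in young mice, at −0.59 (SE 0.20, adjusted p = 0.460), and Birc5 in the age comparisons, at −0.79 (SE 0.30, adjusted p = 0.0768) in Ythdf2 CTL and −0.64 (SE 0.28, adjusted p = 0.124) in Ythdf2 CKO mice by edgeR. Mki67 stood at 120.3, 261, 104 and 170.0 CPM in young Ythdf2 CTL mice 1 to 4 and at 144, 232, 133 and 475 CPM in aged Ythdf2 CTL 65, 99, 114 and 124, and these groups overlapped.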

How the data were processed

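RNA-seq libraries of 100 HSCs were aligned by the authors to GRCm38 with HISAT2 (version not given in the sources used here) and counted on genes with Rsubread, and the deposited table holds these raw counts per gene and library, with no normalization and no molecular identifiers. The annotation, strand setting and rule for shared reads were not given in the sources used here. The members and gene lists were chosen with earlier results of these data known.

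Counts of the libraries of a mouse were summed, and mice were the replicates. Control mice were littermates per the study, but which mice shared a litter or day was not given, and p-values measure the spread between these mice. In R 4.3.3, edgeR 4.0.16 removed genes with low counts (filterByExpr, with a minimum of 10 per mouse and 15 in all), applied TMM factors and ran its quasi-likelihood test, and calls were made at a Benjamini-Hochberg adjusted p below 0.05. The 2 ages were each given a fit and all 17 mice shared 1 for age and for genotype by age. The aged Ythdf2 CTL 99 B library (187034 counts) was left out. The SE is the size of the log2 fold change over the square root of F. Correlations used log2 CPM with a prior count of 2 and 100000 permutations within groups. Genes were chosen for naming as all 10 members, of each other list the called genes (up to 6) and the 2 with the smallest p in a comparison, and the 10 genes most like the helicase mean, of which 1 is not reported here. Some of the uncalled genes and of the cell type markers so chosen are left out of the text. Levels per length used GENCODE M21 exons on GRCm38. Alternatives were other size factors and filters, DESeq2 1.42.0, the library as replicate (quasi-likelihood or likelihood ratio test), 1 library per mouse, replicate blocks, a Y-linked covariate and each mouse left out. The scripts were tested on simulated data.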

Additional observations from a re-analysis of the deposited data

Results flagged for a closer look

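Over the 10 members and Ythdf2, 44 groups of 4 or 5 mice were examined for 1 mouse far from the rest of its group by Dixon's criterion, which chance meets in about 1 of 20 groups (2.2 of 44), and 6 met it. In aged Ythdf2 CKO mice, the mouse labelled 121 stood at 497 CPM for Mcm2, with the next mouse at 267 CPM, and at 188 CPM for Ythdf2, with the next at 87.8 CPM. In aged Ythdf2 CTL mice, 114 stood at 152 CPM for Mcm4, with the next mouse above it at 277 CPM, 65 stood at 661 CPM for Mcm6, with the next at 428 CPM, and the mouse labelled 124 stood at 344 CPM for Mcm5, with the next at 160.1 CPM. In young Ythdf2 CKO mice, 4 stood at 79.2 CPM for Cdt1, with the next at 56.3 CPM. Young Ythdf2 CKO 3, the lowest mouse of its group in all 6 helicase subunits, met the criterion for none of them.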

How the results depend on the processing

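No member was called in the young, aged or genotype-by-age comparison under any of the 20, 22 and 28 alternatives run, in which the calls over all genes ranged from 0 to 90 (main 20), 0 to 420 (main 0) and 0 to 15 (main 0). For age in Ythdf2 CTL mice, where 2 members were called, 1 was called in library A alone (1309 genes in all, against 1825), 0 in library B alone (94 genes) and 1 to 3 with each mouse left out. For age in Ythdf2 CKO mice, 2 (of 2045 genes in all) became 4 by the likelihood ratio test over libraries (3112 genes), 4 with the library letter as a replicate block (2867 genes), 1 in library B alone (941 genes) and 1 to 3 with each mouse left out. Of the pairs of members, 1 passed with all mice, 0 without young Ythdf2 CKO 3 (chosen after seeing the data), 6 without the mice labelled aged Ythdf2 CKO 121 and CTL 124, 0 in library A alone and 9 in library B alone. In library B alone, 1 of 3 aged Ythdf2 CTL mice was above every young one in the Cdt1 to Gmnn ratio, against 4 of 4 with libraries summed (an alternative chosen after seeing the data). The cause of these shifts was not tested.

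Log2 fold changes that turned sign were all uncalled. In young mice, Mcm5 turned to 0.0126 in library B alone and 0.0501 with the Y-linked covariate, Mcm6 to 0.0372 and Mcm7 to 0.13 in library A alone, and Cdc6 to 0.0132 and 0.0133 by the likelihood ratio and quasi-likelihood tests over libraries, 0.0114 with the library letter as a replicate block, 0.0817 in library B alone and 0.23 with the Y-linked covariate. With each young mouse left out, Mcm2 ranged from −0.27 to 0.0874, Mcm5 from −0.36 to 0.16, Mcm6 from −0.34 to 0.12, Mcm7 from −0.24 to 0.17 and Cdc6 from −0.18 to 0.25. In aged mice, library A alone gave −0.0636 for Mcm4, −0.25 for Cdt1 and −0.0451 for Gmnn, and the replicate block gave −0.0048 for Gmnn. With each aged mouse left out, Mcm4 ranged from −0.11 to 0.14, Cdt1 from −0.0258 to 0.63 and Gmnn from −0.0732 to 0.14.

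Young mice of both genotypes share numbers 1 to 4, and the deviations of same-numbered mice correlated at −0.0436 to 0.0489. Libraries A and B of the same mouse gave −0.238 to 0.159, so this measure does not settle whether the numbers pair mice. No label says so, and a replicate block on them called 0 members. Depth limits Orc1 most, at 6 to 213 counts per mouse. Age cannot be told apart from library set, as taken from the code prefixes of the sample descriptions.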
